A study of Populus trichocarpa with 28 samples.

Results

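Well-watered shoot apex and young leaves of the poplar Populus trichocarpa were compared, gene by gene and on both strands, in 4 of the 28 libraries of the series: the control libraries of the long-term drought experiment, 2 from apex and 2 from young leaves, all made from mRNA. The members were chosen by their labels alone, as long-term control mRNA libraries of the tissues apex and young leaves. Libraries from droughted plants were not used. The plants had been raised vegetatively from stem cuttings and rooted in a greenhouse at 20 to 35 C. Watering to field capacity went on for 2 months and, in the control plants, until harvest, while the droughted plants of the same experiment spent 25 days at 40% of field capacity. RNA extracted by CTAB was cleared of DNA with DNase I and made into stranded TruSeq mRNA libraries, so that reads from a gene's own strand (sense) and from the opposite strand (antisense) were counted apart. Library titles carried the numbers 63 and 70 in each tissue. The labels do not say whether a number marks a plant, nor whether the 2 libraries of a tissue came from separate plants. If they did not, the spread behind the p-values may be technical. The labels also do not say how much stem or how many leaf primordia an apex sample held, or how large the young leaves were.

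The shoot apex is the growing tip of the stem. It holds the meristem, whose cells keep dividing, and the youngest leaf primordia that arise on its flanks. Young leaves have left the apex and are still expanding, while cell division gives way to cell enlargement and to the build-up of the photosynthetic apparatus. Antisense RNA is transcribed from the strand opposite a gene. It can come from a transcript of its own, from a neighbouring gene that runs across, or from transcription in both directions at one locus. In bulk tissue, fewer cells of a type and less RNA per cell cannot be told apart.

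Genes are given by their identifiers, because the files pair these with no names or products and none of them matched the reference table at hand. For the same reason the tissue labels could not be checked against marker genes of meristem or leaf. No function is given for any gene below.

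The sense files held 25616813 and 29589429 reads in genes for apex 63 and apex 70, and 25507118 and 27048613 for young leaves 63 and 70. The antisense files held 392377 and 476010 reads in apex and 784026 and 778810 in young leaves. Reads that fell in no gene on the sense strand made up 2.62% and 2.43% in apex and 4.10% and 3.36% in young leaves. These shares are of the reads counted in a gene, in no gene or as ambiguous. Reads antisense to a gene can be among those in no gene, so the shares do not measure reads outside genes. Fewer genes had at least 10 sense reads in young leaves (24893 and 24160) than in apex (25285 and 25227). Young leaf reads were also more concentrated in a few genes. The 100 genes with most reads took 18.6% and 18.4% of reads in apex and 26.3% and 32.0% in young leaves. The 2 libraries of each tissue held different counts, beyond what counting noise gives (chi-square per gene 29.8 in apex and 63.4 in young leaves). Of the genes tested, 1.15% differed by more than 2-fold between the apex libraries, and 2.47% between the young leaf libraries. A small constant was added to each level for these shares, which shrinks the differences of low genes.

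Which genes separate the growing tip from the leaves that have just left it? On the sense strand, 10581 of 25580 genes tested differed between the tissues, which is 41.4% of them. They were split almost evenly. In young leaves 5279 genes were higher (20.6%), by a median of 1.26 on the log2 scale with quartiles of 0.84 and 1.99. In apex 5302 were higher (20.7%), with a median log2 fold change of -1.25 and quartiles of -1.93 and -0.84. Genes were called at a Benjamini-Hochberg adjusted p below 0.05 in edgeR's quasi-likelihood test, and every log2 fold change is young leaves minus apex. Changes above 4-fold were found in 1313 genes higher in young leaves and 1217 higher in apex. Changes above 16-fold were found in 248 and 276 genes, with genes at 0 reads in one tissue held at the smallest fold that 3 reads would give. Over all genes tested the median log2 fold change was -0.017 and the median standard error 0.23. When a change of more than 2-fold had to be shown, 3424 genes passed, 1816 of them higher in young leaves. With upper-quartile scaling in place of TMM, the split was 4853 higher in young leaves and 5807 higher in apex.

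**Figure D1:**
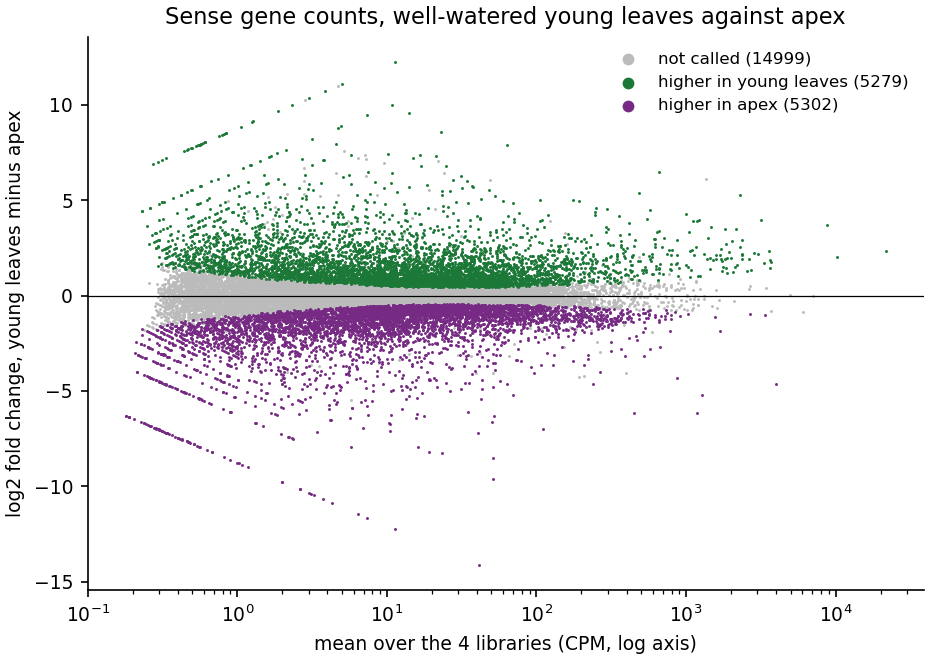
Log2 fold change of sense counts (young leaves minus apex, vertical axis) against the mean level over the 4 libraries (CPM, library-scaled counts, log axis), 1 point per gene tested. Green and purple points are the 5279 genes called higher in young leaves and the 5302 called higher in apex, and grey points were not called. The calls span the range of levels, and the slanted lines at low levels are genes with the same few reads in one tissue.

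The difference was spread over the range of expression rather than held by a few abundant genes. Of the genes with a mean below 1 CPM (reads scaled to the TMM-corrected sense total of the library), 34.9% were called, of those from 1 to 5 CPM 36.2%, and of those at 100 CPM or more 52.3%. The share below 1 CPM is not a like measure, since a low gene can pass the expression filter through the tissue where it is high alone. The median absolute log2 fold change was 0.92 below 1 CPM and 0.59 from 1 to 5 CPM. It was also spread over the genome. By the prefix of the gene identifiers, the share called higher in young leaves ran from 18.3% to 22.8% over the 19 chromosomes, and the share called higher in apex from 18.2% to 22.9%.

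Some genes were read in one of the tissues and not in the other. In 80 genes, each apex library held at least 10 reads and both young leaf libraries held 0. In 35 genes the reverse was true. Of these, 72 and 34 passed the expression filter, where a gene passes through the tissue that reads it. Of those, 72 and 32 were called, beside 41.4% of all genes tested. The same reads chose and called these genes, so their calls are no separate support. Most were low, with a median of 0.718 CPM in apex and 1.22 CPM in young leaves and maxima of 85.9 and 23.5 CPM in a single library. A count of 0 allows up to 3 reads, so such genes are not shown to be silent.

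The 4 genes chosen by rule were all of this kind. The rule took the largest changes in each direction among called genes of at least 5 CPM whose groups did not overlap. Of the 25580 sense genes tested, 18674 had no overlap. Potri.003G111300 had 2525 and 2543 sense reads in apex 63 and 70 and 0 in both young leaf libraries, a level of 82.9 ± 4.21 CPM in apex (SD, n = 2). It was the most abundant gene of the apex-read set, with both apex libraries alike. Against a floor of 3 reads over both young leaf libraries it was at least 1310-fold higher in apex (adjusted p = 1.99e-06, edgeR quasi-likelihood test). Potri.002G060900 had 673 and 706 reads in apex and 0 in both young leaf libraries. The apex libraries stood at 22.5 ± 0.495 CPM. It was at least 356-fold higher in apex (adjusted p = 3.75e-06, edgeR quasi-likelihood test).

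On the young leaf side, Potri.001G462400 had 0 reads in both apex libraries and 592 and 478 in young leaves 63 and 70. Both young leaf libraries were high, at 22.5 ± 1.43 CPM (SD, n = 2). It was at least 461-fold higher in young leaves (adjusted p = 3.41e-06, edgeR quasi-likelihood test). Potri.019G073800 had 0 reads in both apex libraries and 203 and 265 in young leaves, or 10 ± 2.73 CPM. It was at least 202-fold higher in young leaves (adjusted p = 1.75e-05, edgeR quasi-likelihood test). Its mean of 5 CPM over the 4 libraries lay at the threshold of the rule.

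These genes were then looked up in the other control libraries, which are also the place to see what the apex and young leaf genes share beyond the contrast that called them. Those libraries were mature leaves and root of the same experiment (mRNA, numbers 63 and 70) and apex and mature leaves of the short-term experiment (total RNA cleared of ribosomal RNA, numbers 19 and 49). Levels over all 12 control libraries are CPM on one TMM scaling, and between library types they are set side by side without a test.

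Both young leaf genes were leaf genes in the wider set. Potri.001G462400 stood at 68.3 and 112 CPM in long-term mature leaves and at 324 and 214 CPM in short-term mature leaves, and was at or below 0.0864 CPM in both root and both short-term apex libraries. Potri.019G073800 stood at 77.3 and 77.4 CPM in long-term mature leaves and at 40.7 and 41.7 CPM in short-term mature leaves, and at or below 0.0623 CPM in root and short-term apex. In each, the mature leaf libraries of both experiments lay above the young leaf libraries.

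Both apex genes were high in the second set of apex libraries. Potri.003G111300 stood at 13.7 and 37.7 CPM in short-term apex, at 0.872 and 2.45 CPM in root, at 0 in both long-term mature leaf libraries and at no more than 0.0335 CPM in short-term mature leaves. Potri.002G060900 stood at 19.1 and 32.6 CPM in short-term apex, at 0.311 and 0.0695 CPM in root, at 0 in both long-term mature leaf libraries and at no more than 0.067 CPM in short-term mature leaves. For both genes, all apex libraries lay above all root and leaf libraries.

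**Figure D2:**
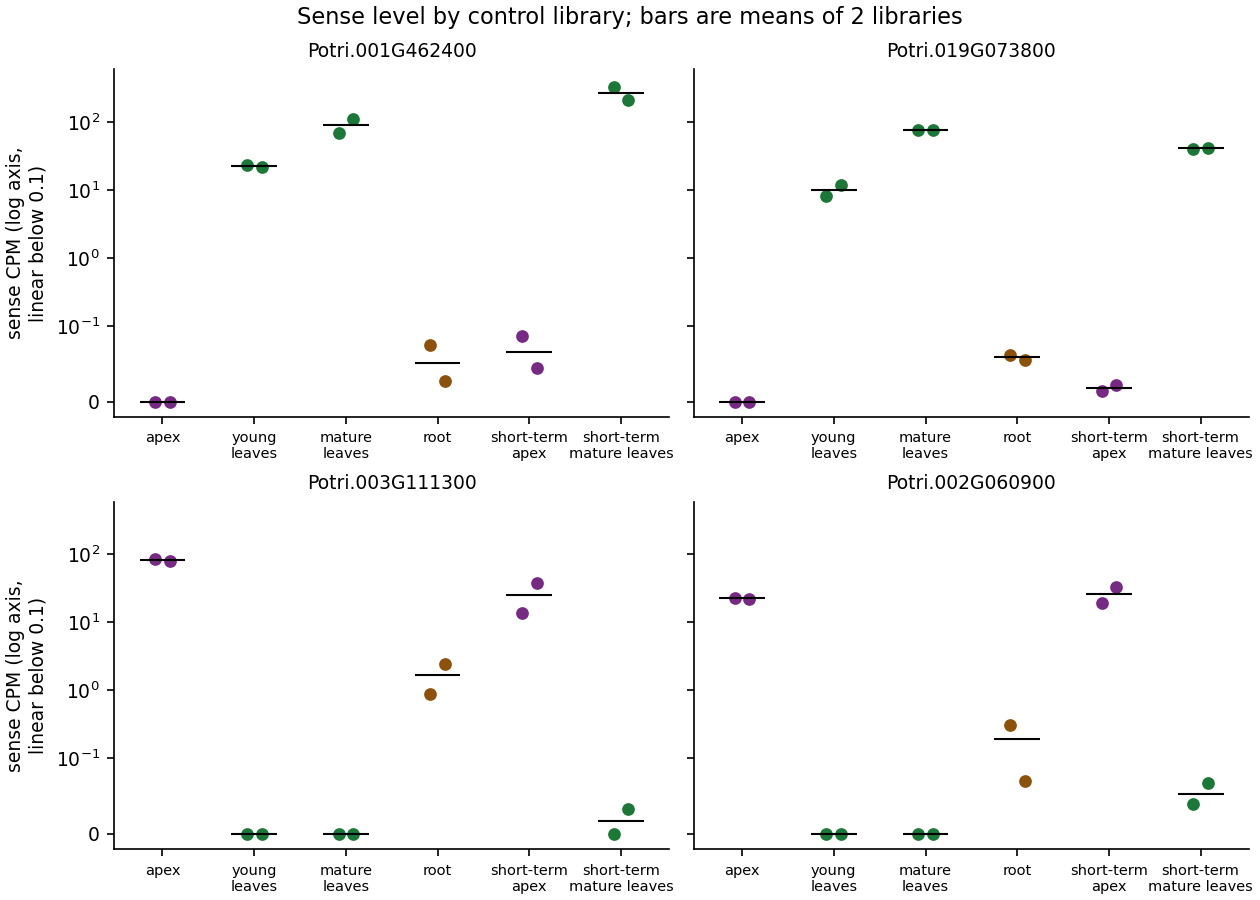
Sense level of the 4 genes chosen by rule in each of the 12 control libraries (CPM, logarithmic above 0.1 and linear below), 1 point per library, with bars at the mean of the 2 libraries of a group. Potri.001G462400 and Potri.019G073800 are high in every leaf library and near 0 in apex and root, and Potri.003G111300 and Potri.002G060900 are high in both sets of apex libraries and at or near 0 in leaves.

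The sets of genes read in one tissue were followed in the same libraries. Of the 80 genes read in apex and not in young leaves, 60 had 0 reads in both long-term mature leaf libraries and none had 10 or more in both, while 63 had at least 10 reads in each short-term apex library and 34 in each root library. Of the 35 genes read in young leaves and not in apex, 29 had at least 10 reads in each long-term mature leaf library and 32 in each short-term one, against 4 in each short-term apex library and 10 in each root library. These counts are not scaled for depth. Sense reads in genes were 21315792 and 22504193 in long-term mature leaves and 58352615 and 51376870 in root. In short-term apex they were 60052682 and 39259039, and in short-term mature leaves 32306721 and 41517868. Of all 41335 gene IDs, 23753 and 23202 reached 10 reads in long-term mature leaves and 27347 and 27239 in root. In short-term apex 27267 and 26200 did so, and in short-term mature leaves 24268 and 24627.

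Over all called genes, the median level in young leaves lay between those in apex and mature leaves. For the 5302 genes higher in apex, the median level was 13.9 CPM in apex, 5.47 CPM in young leaves and 3.23 CPM in mature leaves, with 7.68 CPM in root. For the 5279 genes higher in young leaves, it was 7.55 CPM in apex, 18.2 CPM in young leaves and 21.2 CPM in mature leaves, with 5.95 CPM in root. The apex and young leaf medians describe the choice of genes, but the mature leaf and root levels were not part of it. Over all 25580 genes tested the medians of the same tissues lay between 7.61 and 8.76 CPM.

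The apex genes were mostly highest in apex, while the young leaf genes were more often highest in mature leaves. Among apex, young leaves, mature leaves and root of the long-term experiment, 77.8% of the genes called higher in apex had their highest mean in apex, 21.2% in root and 1% in mature leaves. Of the genes called higher in young leaves, 31.7% (1672 genes) had their highest mean in young leaves, 55.4% (2926 genes) in mature leaves and 12.9% in root. Among all genes tested, 30.6% were highest in apex, 15.4% in young leaves, 25.7% in mature leaves and 28.3% in root. These shares are descriptions without a test, since they use the same apex and young leaf libraries that made the calls. Apex genes could hardly be highest in young leaves, or young leaf genes in apex, and none were. The shares over all genes have no tissue removed in this way, so they are not a like baseline.

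Did the genes that separate apex from young leaves also separate apex from leaves in libraries that took no part in the calls? The short-term experiment gave 2 control apex and 2 control mature leaf libraries, from total RNA and with leaves of another age. There, 14808 of 26757 genes tested differed (55.3%), 7294 higher in mature leaves (27.3%) and 7514 higher in apex (28.1%). Of the 5165 young leaf genes tested in both, 4060 were higher in the short-term mature leaves (78.6%) and 135 in the short-term apex (2.61%), with a median log2 fold change of 1.35. Of the 5148 apex genes tested in both, 4068 were higher in the short-term apex (79.0%) and 74 in the mature leaves (1.44%), with a median of -1.41. Genes not called between apex and young leaves had a median of -0.05, with 17.8% higher in mature leaves and 20.3% higher in apex. Read the other way, among genes tested in both, the shared genes made up 60.4% of the 6727 higher in short-term mature leaves and 56.9% of the 7152 higher in short-term apex. Term, library type and leaf age differ together between these comparisons and cannot be told apart.

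**Figure D3:**
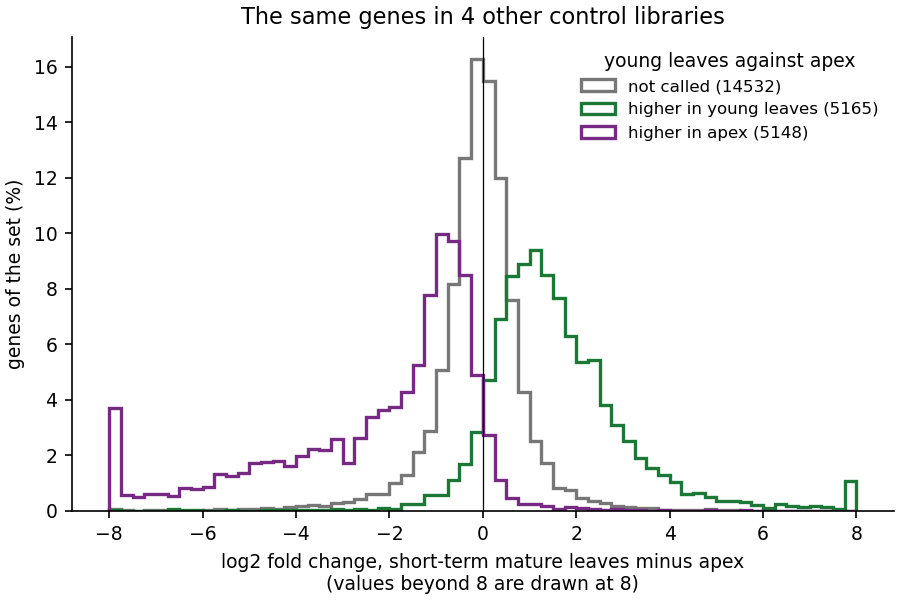
Distribution of the log2 fold change between short-term mature leaves and short-term apex (4 other control libraries) for genes called higher in young leaves (green, 5165 genes), called higher in apex (purple, 5148) or not called (grey, 14532) in the long-term libraries, as a percent of each set in bins along the horizontal axis. The green curve lies to the right of 0 (median 1.35), the purple curve to the left (median -1.41), and the grey curve is centred near 0 (median -0.05).

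Among the genes with most reads in either tissue, some differed between the tissues and others were not called. The genes described next were chosen after their values were seen. Potri.017G114600 took 0.665% and 0.897% of sense reads in apex 63 and 70 and 2.27% and 4.05% in young leaves 63 and 70. Both young leaf libraries were above both apex libraries, and the young leaf libraries differed from each other by more than the apex libraries did. The log2 fold change was 2.36 ± 0.55 (standard error, adjusted p = 0.00851, edgeR quasi-likelihood test). Its call was lost without apex 63, without apex 70 and with a 2-fold minimum (adjusted p = 0.0537, edgeR). Potri.004G100000 took 0.130% and 0.147% of reads in apex and 1.19% and 1.67% in young leaves, without overlap. Its log2 fold change was 3.70 ± 0.47 (adjusted p = 0.000387, edgeR quasi-likelihood test). In the other direction, Potri.019G050200 took 0.910% and 0.793% of reads in apex and 0.0448% and 0.0139% in young leaves. Both young leaf libraries lay far below both apex libraries. The log2 fold change was -4.62 ± 0.55 (adjusted p = 0.000295, edgeR quasi-likelihood test). Not called were Potri.004G155300, the most read gene of apex 63, with 0.937% and 0.803% of reads in apex and 0.465% and 0.320% in young leaves (log2 fold change -0.86, adjusted p = 0.0932, edgeR quasi-likelihood test), and Potri.019G031200, with 0.871% and 0.734% in apex and 0.779% and 0.499% in young leaves (log2 fold change -0.04, adjusted p = 0.939, edgeR quasi-likelihood test).

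Genes next to each other were set side by side to see whether they changed the same way. Where a gene and the next tested gene along the identifiers were both called, they had the same direction in 57.9% of 4467 pairs. At 2, 5, 10 and 20 genes apart the share was 52.8%, 48.9%, 51.8% and 50.5%. Near-identical copies in a row may share reads in the authors' counting, so pairs of copies are uncertain.

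The longest runs of neighbours with one direction, chosen after their values were seen, held 7 genes, 1 in each direction, and 8 further runs held 6. The run from Potri.011G073900 to Potri.011G075000 was higher in young leaves, with a median log2 fold change of 3.94. Potri.011G074100 of this run stood at 130 and 143 CPM in apex and 2220 and 1970 CPM in young leaves. Potri.011G075000 stood at 139 and 161 CPM in apex and 2890 and 1730 CPM in young leaves. For both, each young leaf library was more than 10 times each apex library. Other members of the run were low: Potri.011G074600 stood at 0 and 0.0314 CPM in apex and at 0.398 and 1.26 CPM in young leaves. The first gene of the run, Potri.011G073900, lost its call without apex 70, without young leaves 70 and with a 2-fold minimum (adjusted p = 0.079, edgeR), and the run is then shorter.

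The run of 7 genes higher in apex, from Potri.002G115100 to Potri.002G116200, had smaller changes, with a median of -1.71. Potri.002G115100 stood at 44.6 and 47.0 CPM in apex and 3.42 and 4.32 CPM in young leaves, without overlap, and the least changed member had a log2 fold change of -0.75. A run of 6 genes from Potri.019G008000 to Potri.019G008700 showed the strongest median fall among runs of 6 or more, at -4.74. In it, Potri.019G008600 stood at 6.26 and 11 CPM in apex and 0.318 and 0.045 CPM in young leaves. In a run of 6 genes higher in young leaves, from Potri.013G139200 to Potri.013G140100, 4 members were loci with equal reads on both strands, which are described with the antisense reads. One of them, Potri.013G140000, lost its call without the count filter (adjusted p = 0.0928), without apex 63 (0.4), without apex 70 (0.349) and with a 2-fold minimum (0.0685, all in edgeR), and the run is then broken. The last gene of the run on the apex side, Potri.019G008700, lost its call without young leaves 70 and in DESeq2.

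Turning to the opposite strand, antisense reads per 100 sense reads were higher in both young leaf libraries than in both apex libraries, and a few loci held most of the young leaf reads. The ratio was 1.53 and 1.61 in apex 63 and 70 and 3.07 and 2.88 in young leaves 63 and 70. The means were 1.57 ± 0.0544 and 2.98 ± 0.138 (SD, n = 2), a difference of 1.41 (exact permutation test, two-sided, p = 0.333, the smallest that 2 against 2 libraries can give). Mature leaves stood at 4.74 and 5.82 and root at 1.41 and 1.38. The 10 genes with most antisense reads over the 4 libraries held 26.8% and 30.9% of antisense reads in apex and 68.9% and 69.9% in young leaves. Without them, apex had 1.12 and 1.12 antisense reads per 100 sense reads and young leaves 0.972 and 0.880. The difference was then -0.194, but these genes were ranked on a sum in which young leaves held more of the reads. The 10 genes with most antisense reads in each library by itself held 31.7% and 36.7% in apex and 68.9% and 69.9% in young leaves, and without each library's own 10 the ratios were 1.05 and 1.02 in apex and 0.972 and 0.880 in young leaves, a difference of -0.109. Without the 10 genes with most antisense reads in apex, young leaves stayed higher, at 1.37 and 1.18 against 1.05 and 1.02, a difference of 0.24. The direction outside the leading loci thus turned with the choice of loci.

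**Figure D4:**
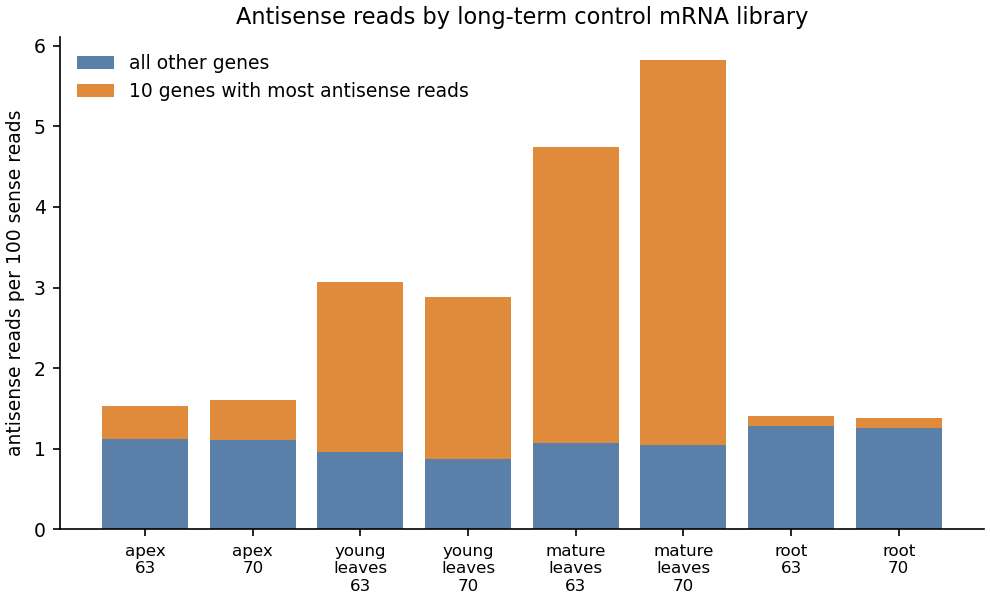
Antisense reads per 100 sense reads (vertical axis, from 0) in the 8 long-term control mRNA libraries, split into the 10 genes with most antisense reads in the apex and young leaf libraries (orange) and all other genes (blue). The whole bars are taller in young leaves (3.07 and 2.88) than in apex (1.53 and 1.61), while the blue parts, per 100 sense reads of all genes, are slightly shorter. With the sense reads of the 10 genes left out as well, the ratios were 0.972 and 0.880 in young leaves against 1.12 and 1.12 in apex.

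Some loci had the same number of reads on both strands. In 169 of the 1411 genes with at least 40 reads on each strand, sense and antisense counts were equal within 1% in all 4 libraries. These loci held 22.9% and 21.1% of antisense reads in apex and 50.4% and 37.5% in young leaves. An example is Potri.013G139800 (chosen after its values were seen), with 9959, 12985, 173056 and 110985 antisense reads in apex 63, apex 70, young leaves 63 and young leaves 70 and 9962, 12989, 173085 and 110998 sense reads. Without these loci, apex had 1.23 ± 0.0622 and young leaves 1.68 ± 0.192 antisense reads per 100 sense reads, a difference of 0.455. How the equal counts arose was not tested. On the sense strand 164 of these loci were tested, with 27 called higher in young leaves (16.5%) and 18 in apex (11%), beside 20.6% and 20.7% of all sense genes tested.

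Single loci with unequal strands also held many antisense reads, and the examples were again chosen after their values were seen. Potri.005G239200 had 47422 and 78223 antisense reads in apex and 138030 and 237440 in young leaves, beside 18774, 34480, 62263 and 117354 sense reads. Antisense exceeded sense in each library, and both strands were higher in young leaves. Its antisense log2 fold change was 1.99 ± 0.40 (adjusted p = 0.00552, edgeR quasi-likelihood test), and the call was lost without apex 63 (adjusted p = 0.0501). Potri.001G400200 had 0 sense reads in all 4 libraries and 1254, 2402, 20387 and 26830 antisense reads. The young leaf libraries were far above the apex libraries, at a log2 fold change of 4.09 ± 0.38 (adjusted p = 0.000122, edgeR quasi-likelihood test).

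Gene by gene, antisense reads were sparse, and 1689 genes passed the filter. Of these, 578 differed between the tissues (34.2%), 324 higher in young leaves (19.2%, median log2 fold change 1.89) and 254 higher in apex (15.0%, median -1.77). The median over all antisense genes tested was -0.011. Antisense counts were scaled by the sense library sizes, so that a shift in total antisense reads remains part of each change. DESeq2 called 308.

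The 4 antisense genes chosen by rule (at least 1 CPM, groups without overlap) had no equal strands. Of the 1689 antisense genes tested, 1176 had no overlap. Potri.014G124600 had 1 and 6 antisense reads in apex and 949 and 1192 in young leaves. Its level rose from 0.111 ± 0.109 to 45.7 ± 11.3 CPM (SD, n = 2). The log2 fold change was 8.59 ± 0.48 (adjusted p = 2.47e-05, edgeR quasi-likelihood test). Its own sense strand had 0 reads in both apex libraries and 18 and 25 in young leaves, far fewer than its antisense strand. Over the 12 control libraries, its antisense level was 97.3 and 121 CPM in long-term mature leaves and 34.6 and 55.4 CPM in short-term mature leaves, and 0 in both root libraries.

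Potri.008G079200 had 0 and 1 antisense reads in apex and 68 and 84 in young leaves. With 1 read in apex, the ratio of levels was 196.5, with a 95% exact interval from 34.74 to 7812 that covers counting error only (adjusted p = 8.24e-05, edgeR quasi-likelihood test). Between these tissues its sense strand moved with it, from 0 and 1 reads to 50 and 52. Antisense levels were 45.6 and 65.8 CPM in long-term mature leaves, 11 and 27.1 CPM in root and 5.24 and 6.77 CPM in short-term mature leaves. Sense levels were 31.6 and 47.5 CPM in long-term mature leaves, but 0 in both root libraries and 0 and 0.067 CPM in short-term mature leaves. The gene that follows it by identifier, Potri.008G079300, fell on the sense strand, with 1467 and 1673 reads in apex and 779 and 825 in young leaves (log2 fold change -0.59, adjusted p = 0.0196, edgeR quasi-likelihood test).

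On the apex side, Potri.005G252300 had 151 and 168 antisense reads in apex and 1 in each young leaf library. The apex level was 123.4 times the young leaf level, with a 95% exact interval from 33.88 to 1023 (adjusted p = 6.23e-05, edgeR quasi-likelihood test). Its sense strand moved far less, with 485 and 529 reads in apex and 290 and 242 in young leaves. That sense change (log2 fold change -0.56, adjusted p = 0.023, edgeR quasi-likelihood test) lost its call in DESeq2 and without apex 63, apex 70 or young leaves 70. The gene before it, Potri.005G252200, had 418, 408, 413 and 340 sense reads in the 4 libraries and was not called. Potri.003G006000 had 51 and 79 antisense reads in apex and 2 and 0 in young leaves. The ratio was 50.28 (95% exact interval 13.64 to 419.6; adjusted p = 0.000471, edgeR quasi-likelihood test). Here the sense strand fell as well, from 712 and 779 reads to 18 and 19. In short-term apex both antisense signals were present, at 1.20 and 2.25 CPM for Potri.005G252300 and 1.73 and 3.37 CPM for Potri.003G006000. In the root and leaf libraries among the 12, neither exceeded 0.212 CPM.

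Among the 1374 genes tested on both strands and without equal counts, the strands mostly moved together where both were called. Both were higher in young leaves in 174 genes and both higher in apex in 116. They went opposite ways in fewer: 27 had sense higher in young leaves and antisense higher in apex, and 23 the reverse. Antisense alone was called higher in young leaves in 73 genes and higher in apex in 82. Sense alone was called in 159 and 130, and neither strand in 590. Both strands were read in the same libraries and scaled by the same sizes. Among a further 151 genes tested on the antisense strand alone, 29 were higher in young leaves (19.2%) and 12 in apex (7.95%), beside 19.2% and 15.0% of all antisense genes tested.

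**Figure D5:**
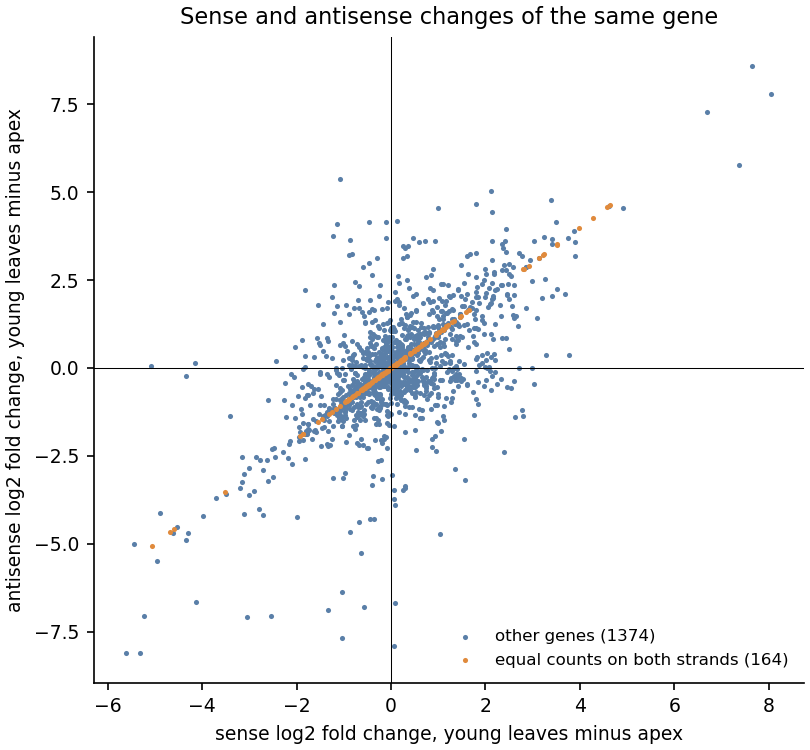
Antisense against sense log2 fold change (young leaves minus apex) for the 1538 genes tested on both strands, 1 point per gene. The 164 loci with equal counts on both strands (orange) lie on the diagonal by construction. The other 1374 genes (blue) spread from lower left to upper right, with some along the vertical axis, where the sense change is near 0.

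Antisense changes were also set beside the sense strand of the next genes on either side. Of 298 antisense genes higher in young leaves (equal loci left out), 174 had a sense call in the same direction at their own locus (58.4%) and 168 at a gene next to them (56.4%), against 58 with a neighbour called the other way (19.5%). For 40, neither the own nor a neighbouring sense strand was called in that direction. Of 232 antisense genes higher in apex, 112 had such a sense call at their own locus (48.3%), 112 at a neighbour (48.3%) and 52 at neither, and 41 had a neighbour called the other way (17.7%). Of the 974 antisense genes not called, 16.2% had an own sense strand higher in young leaves and 13.3% one higher in apex. Around them, a neighbour was higher in young leaves for 26.2% and higher in apex for 22.8%. Neighbours were taken by identifier order, without coordinates or strand, so overlap between genes was not examined.

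Whether antisense moved by another amount than sense was tested as a strand by tissue term. Of 1538 genes tested on both strands, 31 passed (2.02%), 10 with relatively more antisense in young leaves (0.650%) and 21 with relatively more in apex (1.37%). No gene passed without any one of the 4 libraries, with the title number in the model or without the count filter, and 90 passed when the equal loci were left out. The 3 examples were chosen after their values were seen. Potri.012G040900 had 16, 29, 177 and 284 antisense reads in apex 63, apex 70, young leaves 63 and young leaves 70, beside 1759, 2084, 487 and 767 sense reads. Antisense was higher and sense lower in both young leaf libraries (sense log2 fold change -1.22, log2 change of the ratio 4.98, adjusted p = 0.0476, edgeR quasi-likelihood test). Potri.006G140400 had 12 and 13 antisense reads in apex and 217 and 135 in young leaves, beside 667 and 828 sense reads in apex and 479 and 365 in young leaves. Its sense change was not called (log2 fold change -0.46, adjusted p = 0.0577, edgeR quasi-likelihood test), and its antisense rose (log2 change of the ratio 4.60, adjusted p = 0.0421, edgeR quasi-likelihood test). In the other direction both strands of Potri.005G252300 were lower in young leaves, antisense by more, with a log2 change of the ratio of -6.24 (adjusted p = 0.00968, edgeR quasi-likelihood test), which rests on the 1 antisense read in each young leaf library.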

How the data were processed

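Whole-number read counts per gene, sense and antisense, were used as the authors deposited them, 1 file per strand and library. The tools named by the submitters' processing notes are DESeq2, HTSeq 0.6.0 and TopHat2 2.1.0, whose roles are not described. Which genome build, annotation and settings served for counting is not given in the sources used here. How the authors' counting divided reads between overlapping genes or near-identical copies is unknown, so these genes are uncertain. Closing lines that name no gene were left out of totals and tests. Reads are not unique molecules, so intervals and floors cover counting error only.

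Tests used edgeR 4.0.16 (limma 3.58.1, R 4.3.3): the default filter on low counts (10 in the scaled libraries, 15 summed), TMM, and a robust quasi-likelihood fit to the 4 libraries with no covariate. Genes below an adjusted p of 0.05 over all genes tested count as called. Antisense counts took the effective library sizes of the sense strand. The ratio was tested as a strand by tissue term with a term for each library. Standard errors are the log2 fold change over the root of F. The fits were first run on simulated counts with the same spread for all genes and independent strands, unlike the loci of equal counts. A minimum share of recovered changes was required of all fits but the ratio. Alternatives included DESeq2 1.42.0, other scaling and filters, a 2-fold minimum, the title number as a term and each library left out.

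Of 41335 gene IDs, 0 matched the 34621 genes of assembly P.trichocarpa_v4.1 in the reference table, so 44 lists by product name had no members and gave no result. Without names, the rule took 2 genes per direction and strand: the largest fold change among called genes whose groups did not overlap, and whose mean reached 5 CPM on the sense or 1 CPM on the antisense strand. The comparison, lists and rules were chosen with earlier results of these data known.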

Additional observations from a re-analysis of the deposited data

How the results depend on the processing

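On the sense strand the number of called genes ran from 9144 (DESeq2) to 12476 (replicate block) over the other filters, scalings and fits, from 7640 to 10285 with each library left out, and 3424 passed a 2-fold minimum. No gene called in both went the other way. Antisense calls fell to 308 in DESeq2 and to 232 with a 2-fold minimum, and came to 571 of 13457 genes without the count filter. They ran from 408 to 586 with each library left out and came to 652 with the replicate block and 540 without the equal loci. The 8 genes chosen by rule kept their calls under all alternatives run.

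Ratio calls came to 0 without the count filter (661 genes at an unadjusted p below 0.05, edgeR), 0 with the replicate block (289 genes), 0 to 0 with each library left out (236 to 244 genes), 92 with each strand scaled by its own totals and 90 without the equal loci, against 31 (343 genes). DESeq2 was not run on the ratio. The cause was not tested.

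The difference in antisense reads per 100 sense reads ran from 1.31 to 1.5 with a library left out, was 0.455 without the equal loci and -0.194, -0.109 or 0.24 without the 10 genes with most antisense reads over the 4 libraries, in each library by itself or in apex. These settings on loci were chosen after seeing the data. Short-term calls ran from 11625 to 15667.

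The 63-minus-70 differences of apex and young leaves correlated at 0.30 over 25580 genes, those of young and mature leaves at 0.48, and the other pairs among the 4 long-term tissues at 0.07 to 0.20. With 2 numbers this does not establish that the numbers pair samples. The gene lists were not run under other scaling, since no member matched.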
